A study of Mus musculus with 23 samples.

Results

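The genes described here are those that encode the proteasome, its activators, its inhibitor and its assembly factors, taken as every gene whose symbol is Psm followed by a letter from a to g and a number. 48 of the 47729 genes counted carried such a symbol, and 47 of them had enough counts to be tested. RNA was measured in 23 libraries of dendritic cells (DCs), the cells that take up antigen and present it to T cells, sorted from the spleens of wild type BALB/c mice. 4 subsets were sorted by the surface proteins CD8 and CD172: DC1a (CD8 high, CD172 negative), DC1b (CD8 intermediate, CD172 positive), DC2 (CD8 low, CD172 high) and DC3 (CD8 negative, CD172 low). The mice were untreated or had the treatment labelled TLI, which the labels do not spell out. Ages, the dose of TLI and the number of mice in a pool were not given in the sources used here. Each library came from a pool of mice, and the subsets of a pool came from the same mice. Untreated mice gave 2 pools, so each untreated subset has 2 libraries. TLI mice gave 4 pools, with 4 libraries of DC1a, DC1b and DC3 cells and 3 of DC2 cells (pools 1, 3 and 4). The untreated pools and TLI pools 1 and 2 were taken as batch 1, and TLI pools 3 and 4 as batch 2. The sample titles name the treatment, pool and subset but no batch. The split is therefore a setting of the fits, and batch below means these sets of pools. The fitted differences between TLI and untreated mice rest on it. A replicate number below is the number of the pool. Errors and p-values of the fits measure the spread between libraries of a group, which come from different pools, estimated over all 8 groups. The main fit has no term for the pool, so libraries of the same mice count as independent.

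The proteasome is the barrel-shaped protease that degrades ubiquitin-tagged proteins in the cytosol and nucleus. Its 20S core is built of alpha and beta rings, and the 19S cap unfolds the substrate and feeds it in. The catalytic sites lie on Psmb5, Psmb6 and Psmb7 in the standard core. Psmb8, Psmb9 and Psmb10, which interferon gamma induces, take their places in the immunoproteasome (Psmb8 that of Psmb5, Psmb9 that of Psmb6 and Psmb10 that of Psmb7), and the peptides it cuts are well suited to MHC class I. Dendritic cells are known for a high content of immunoproteasome, and DC1 cells for presenting peptides of ingested proteins on MHC class I.

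Psmb8 (ENSMUSG00000024338, chr17:34197721-34201454, plus strand) and Psmb9 (ENSMUSG00000096727, chr17:34181987-34187764, minus strand) are neighbours in the MHC region of mouse chromosome 17 (GRCm38 coordinates), and exons of Psmb9 overlap those of Tap1 on the other strand. Psme1 (chr14:55578123-55581529, plus strand) and Psme2 (chr14:55587441-55591113, minus strand) lie close together on chromosome 14. The use of strand in counting was not given in the sources used here, so reads of Psmb9 and Tap1 may be mixed where their exons overlap. The same holds for Psme1 with Emc9, Psmb8 with Gm20496, Psma5 with 1700010K24Rik and Psmb7 with Nek6, and for some other members. To show sequence near the start of 4 of the genes that interferon gamma induces and that were called below, 30 bases from the 250 bases before a RefSeq start (GRCm38 table of promoters) follow. For Psmb8, Psmb9 and Psme1 this start lies within the annotated gene, so the bases lie inside the coordinates above, and for Psme2 they lie before the gene. They are written 5′ to 3′ on the gene's strand, with 1 motif in capitals.
Psmb8: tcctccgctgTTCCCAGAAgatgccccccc
Psmb9: tgcgcgatgatgGGGCGGggcctcagtctg
Psme1: gacccgagcgccGGGCGGaaacgctactcc
Psme2: atactataagctCCGCCCttctcgagaggc
The capitals mark a match to the gamma-activated site TTCNNNGAA in Psmb8 (chr17:34198088-34198117, ending 88 bases before the start). In the others they mark a GC box, GGGCGG, bound by Sp1: in Psmb9 (chr17:34187368-34187397, 49 bases before the start), in Psme1 (chr14:55578373-55578402, 103 bases before) and, on the opposite strand, in Psme2 (chr14:55591151-55591180, 61 bases). Searched on both strands in the same 250 bases, TTCNNNGAA was found in 7.02% of 32851 promoter windows of all genes and in 2 of the 40 proteasome genes with a window, Psmb8 and Psmg1. GGGCGG was found in 32.7% of all windows and in 22 of the 40 genes, and the core of the interferon-stimulated response element in 2.98% of all windows and in 3 of the 40, none of which is an immunoproteasome gene. A match of letters does not show that a factor binds, and the short motif is frequent.

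Library totals ranged from 19256447 to 36997890 estimated counts. Levels are given as CPM, counts scaled to the size of the library with TMM factors, which correct for differences in library composition, and 3 counts correspond to 0.0861 to 0.147 CPM. The 48 genes together took 0.871% to 1.61% of a library's counts. Transcripts of the sorting markers followed the labels in part. Mean Cd8a was 488 CPM in untreated DC1a, 239 in DC1b, 0.473 in DC2 (CD8 low) and 19.1 in DC3 cells (CD8 negative), and mean Sirpa, the gene of CD172, was 0.236, 46.2, 206 and 0.576 CPM. In TLI mice Cd8a was 375 to 913 CPM in the 4 DC1a libraries and 85.4 to 352 in 3 DC1b libraries, but 0.363 CPM in TLI DC1b replicate 4. Sirpa was 145 and 162 CPM in TLI DC1b replicates 2 and 1 and 5.51 and 7.26 in replicates 3 and 4, and it was 34.0, 8.78 and 282 CPM in TLI DC2 replicates 1, 3 and 4. Calls of proteasome genes that rest on TLI DC1b replicate 4 or TLI DC2 replicate 3 are therefore given below with and without them. The DC3 libraries held 8 DC1 markers at a summed 2032 to 2160 CPM in untreated mice. The sums were 2827 to 3166 in DC1a, 1647 to 1822 in DC1b and 251 to 286 in DC2 cells. Mean Irf8 and Cd24a were higher in untreated DC3 (807 and 527 CPM) than in DC1a cells (556 and 295). The other DC1 markers were lower there, such as Xcr1 (139 against 466 CPM) and Clec9a (233 against 597). Transcripts of other cells moved with some groups. The 4 erythroid markers summed to 11419 to 85904 CPM in the 7 TLI libraries of batch 1, 106 to 4550 in the 8 of batch 2 and 31.2 to 1307 in the 8 untreated libraries. In TLI DC1b libraries 6 neutrophil markers summed to 1340 to 22699 CPM (0.747 to 16.5 in untreated DC1b), and in untreated DC1b libraries 5 plasmacytoid DC markers reached 2383 to 2743 CPM (54.5 to 157 in TLI DC1b). Neutrophil markers were also 100 to 2114 CPM in TLI DC2 against 7.04 to 11.4 in TLI DC1a libraries. The 5 NK cell markers summed to 13.8 to 2622 CPM in TLI DC3 against 0 to 181 in TLI DC1a, and to 90.8 to 219 CPM in untreated DC3 against 0.111 to 0.123 in untreated DC1a. The part of these cells in the values below was not tested, and in sorted bulk cells a lower share of expressing cells and less RNA per cell cannot be told apart.

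**Figure D1:**
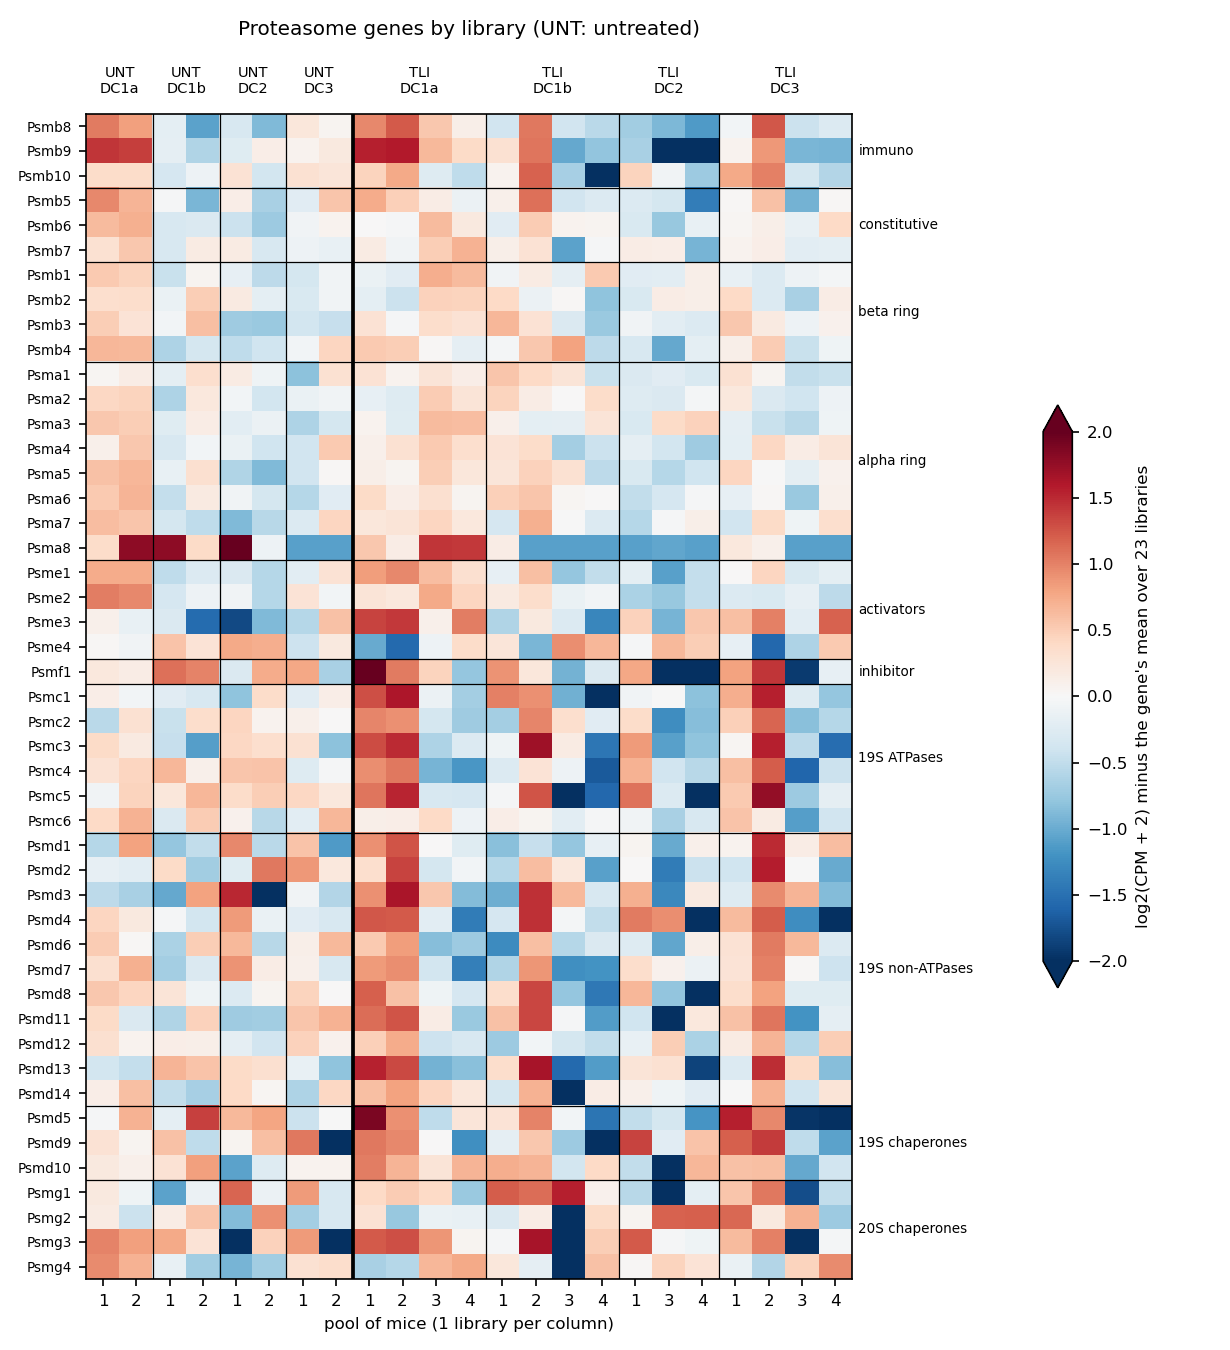
Each row is a proteasome gene and each column a library, ordered by treatment, subset and pool, and the color gives log2(CPM + 2) minus the gene's mean over the 23 libraries, in log2 units. Psmb8, Psmb9, Psme1 and Psme2 were above their means in all 6 DC1a columns, and the 19S rows were mostly above their means in TLI pools 1 and 2.

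Psmb9, the immunoproteasome subunit that replaces Psmb6, was the member with the most calls, and it was highest in DC1a cells in each of the 6 pools. It stood at 887 and 851 CPM in untreated DC1a cells, 289 and 214 in DC1b, 275 and 357 in DC2 and 343 and 374 in DC3. In TLI mice it stood at 963, 985, 512 and 426 CPM in TLI DC1a cells, 404, 692, 159.8 and 187 in DC1b, 207, 67.7 and 74.4 in DC2 and 342, 597, 172 and 171 in DC3. The untreated DC1a libraries did not overlap those of any other untreated subset. In TLI mice the DC1a libraries of pools 3 and 4 lay below DC1b and DC3 libraries of pool 2, so DC1a overlapped DC1b and DC3 across pools, while all 3 DC2 libraries lay below all 4 of DC1a, and within each pool DC1a was the highest. Of all genes tested 1.3% were highest in DC1a in each of the 6 pools, and among the 47 members Psmb9 and Psme1 were. No member was lowest in DC1a in each pool, against 5.16% of all genes. Both shares of all genes count ties for DC1a, such as genes with no counts in several subsets. They may therefore be too high to set beside the members, and no conclusion is drawn from them.

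Tested against DC1a with edgeR's quasi-likelihood test and Benjamini-Hochberg adjustment over 19597 genes (a call below is edgeR's unless DESeq2 is named), Psmb9 was lower in untreated DC1b (-1.79 ± 0.30 on the log2 scale (SE), adjusted p = 0.00643) and in untreated DC2 cells (-1.46 ± 0.30, adjusted p = 0.0153). These are 3.45-fold and 2.75-fold lower. In untreated DC3 cells the difference of -1.28 ± 0.30 did not pass, with an adjusted p of 0.123 and a 95% interval from -1.91 to -0.65. In TLI mice Psmb9 was lower than in DC1a in DC1b (-1.14 ± 0.21, adjusted p = 0.00754), DC2 (-2.51 ± 0.25, adjusted p = 9.21e-06) and DC3 cells (-1.26 ± 0.21, adjusted p = 0.00464). The DC2 level was 5.69-fold below that of DC1a. Psmb9 was also lower in TLI DC2 than in TLI DC1b cells (-1.37 ± 0.23, adjusted p = 0.0175) and higher in TLI DC3 than in TLI DC2 cells (1.25 ± 0.23, adjusted p = 0.0087). TLI DC3 and TLI DC1b cells differed by -0.12, with a 95% interval from -0.56 to 0.31. The order in TLI mice was thus DC1a, then DC1b and DC3, which were not told apart, then DC2. With only 2 libraries a group, the untreated calls rested on single libraries: the DC1b call did not pass without DC1a replicate 1, DC1a replicate 2 or DC1b replicate 2 (adjusted p up to 0.148), and the DC2 call did not pass without any 1 of its 4 libraries (up to 0.183). The TLI calls against DC1a passed whichever of their libraries was left out, with an adjusted p of at most 0.0356 for DC1b, 0.000171 for DC2 and 0.026 for DC3, whereas the call between DC2 and DC1b did not pass without TLI DC2 replicate 3 or 4 (adjusted p up to 0.119). Within batch 2 of the TLI mice the differences from DC1a were -1.34 in DC1b, -2.59 in DC2 and -1.33 in DC3 (adjusted p = 0.00997, 0.000157 and 0.0179), and within batch 1, which held 1 DC2 library and high erythroid transcripts, -0.77, -2.15 and -1.03 (adjusted p = 0.613, 0.0643 and 0.693). With no term for batch in the fit, the DC2 call against DC1a in TLI mice remained (adjusted p = 0.0237) and the other 6 Psmb9 calls did not pass (0.323 to 0.567). Without TLI DC1b replicate 4, which held almost no Cd8a, Psmb9 differed between TLI DC1b and DC1a by -1.13 (adjusted p = 0.0298), and without TLI DC2 replicate 3, with little Sirpa, between TLI DC2 and DC1a by -2.45 (adjusted p = 0.000171). The calls of Psmb9 in TLI DC2 against DC1b without TLI DC1b replicate 4 and in TLI DC3 against DC2 without TLI DC2 replicate 3 still passed (-1.38 and 1.19, adjusted p = 0.0384 and 0.0489).

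**Figure D2:**
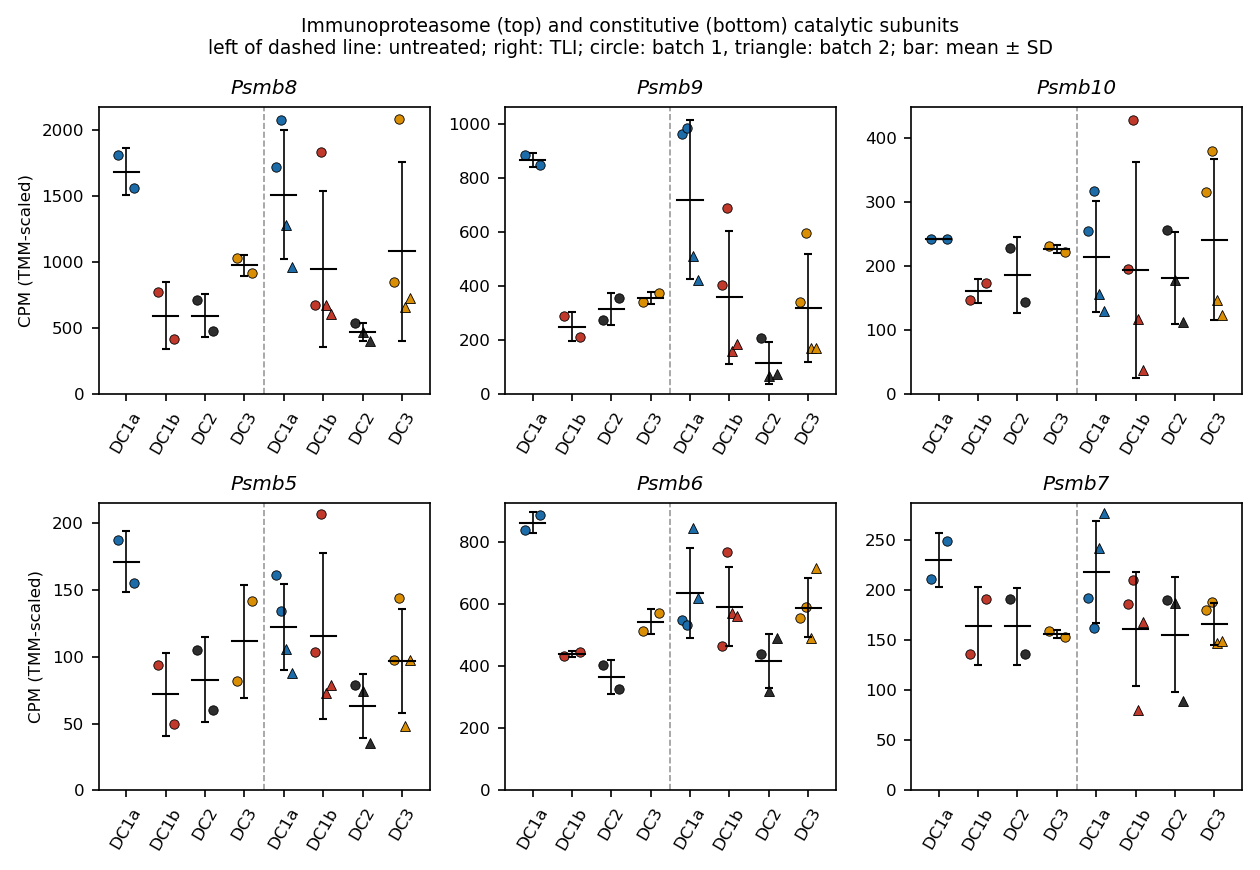
CPM of the 3 immunoproteasome (top) and 3 constitutive (bottom) catalytic subunits in each of the 23 libraries, by subset, with untreated mice left and TLI mice right of the dashed line. Circles are batch 1, triangles batch 2, and bars the mean ± SD of the group. Psmb9 was 851 to 887 CPM in untreated DC1a and 214 to 374 in the other untreated libraries, and 67.7 to 207 CPM in TLI DC2.

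Psmb8, the immunoproteasome subunit that replaces Psmb5, stood at 1811 and 1555 CPM in untreated DC1a cells, 773 and 419 in DC1b, 710.1 and 479.6 in DC2 and 1031 and 918 in DC3. Its levels after TLI were 1717, 2072, 1279 and 962 CPM in TLI DC1a cells, 675, 1831, 679 and 605 in DC1b, 543, 472 and 400.3 in DC2 and 850.2, 2083, 658 and 728 in DC3. Both untreated DC1a libraries were above every other untreated library. The 3 TLI DC2 libraries were below all 4 TLI DC1a libraries, whereas replicate 2 of TLI DC1b and of TLI DC3 lay at the level of DC1a. Psmb8 was lower in TLI DC2 than in TLI DC1a cells (-1.48 ± 0.34 on the log2 scale (SE), adjusted p = 0.0232), a call that did not pass without TLI DC2 replicate 1 or 4 or TLI DC1a replicate 3 (adjusted p up to 0.139) or without the batch term (0.0734). Without TLI DC2 replicate 3 the difference was -1.63 (adjusted p = 0.0454). In untreated cells the differences from DC1a were -1.50 ± 0.44, adjusted p = 0.149 in DC1b, -1.50 ± 0.44, adjusted p = 0.0992 in DC2 and -0.79 ± 0.43, adjusted p = 0.705 in DC3, none past the threshold of 0.05. Untreated DC1b and DC2 cells were not told apart, with a 95% interval of their difference from -0.91 to 0.90.

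Psmb10, which replaces Psmb7, was not called between subsets, and in TLI mice its levels did not overlap between batches. It stood at 243 and 242 CPM in untreated DC1a cells, 148 and 175 in DC1b, 228 and 145 in DC2 and 232 and 222 in DC3. In TLI mice it stood at 255, 317, 156 and 131 CPM in TLI DC1a cells, 196, 429, 117 and 38.1 in DC1b, 256, 178 and 113 in DC2 and 317, 379, 147 and 124 in DC3. In each TLI subset the pools of batch 1 were above those of batch 2, with 196 to 429 CPM in the 7 libraries of batch 1 and 38.1 to 178 in the 8 of batch 2. Its 6 fitted differences from DC1a lay between -0.59 (untreated DC1b, interval -1.59 to 0.41) and 0.09 (TLI DC3, interval -0.61 to 0.79).

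Of the standard catalytic subunits, Psmb6 had 1 call. It stood at 837 and 885 CPM in untreated DC1a cells, 433 and 445 in DC1b, 402 and 326 in DC2 and 514 and 572 in DC3. Untreated DC1a libraries were again above all others, and Psmb6 was lower in untreated DC2 than in DC1a cells (-1.24 ± 0.28 on the log2 scale (SE), adjusted p = 0.03), a call lost without any 1 of the 4 libraries compared (adjusted p up to 0.295) and without the batch term (0.106). In TLI mice it stood at 547, 533, 846 and 619 CPM in TLI DC1a cells, 464, 768, 571 and 562 in DC1b, 439, 321 and 490.1 in DC2 and 555, 589.7, 489 and 716 in DC3. The DC1a libraries overlapped those of DC1b and DC3, and the 3 DC2 libraries lay below all 4 of DC1a. The difference between DC2 and DC1a was -0.62 ± 0.22, adjusted p = 0.14. The lowest, median and highest levels of Psmb5 over the pools were 88.2, 144 and 187 CPM in the 6 libraries of DC1a cells, 49.97, 86.3 and 206 in the 6 of DC1b, 35.5, 74.5 and 105 in the 5 of DC2 and 48.4, 97.5 and 144 in the 6 of DC3. The lowest, median and highest levels of Psmb7 over the pools were 162, 226 and 277 CPM in the 6 libraries of DC1a cells, 80.1, 177 and 210.4 in the 6 of DC1b, 89.0, 187 and 191 in the 5 of DC2 and 147, 156 and 188 in the 6 of DC3. Neither gene passed in any of the 16 comparisons, and the largest difference of Psmb5 was -1.25, with a 95% interval from -2.25 to -0.24, for untreated DC1b against DC1a.

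Set against each other per kilobase of exon, the immunoproteasome subunits differed in their relation to the standard subunits they replace. By union exon length, the log2 level of Psmb8 was above that of Psmb5 in all 23 libraries, by 0.75 to 2.04, and it was so with the length of the longest coding transcript too (1.81 to 3.10). The other pairs depended on the length used. The level of Psmb9 was below that of Psmb6 in all 23 libraries by union exon length (-3.69 to -0.08) and in 21 by the longest coding transcript (-3.48 to 0.13). The level of Psmb10 was above that of Psmb7 in 21 libraries by union exon length (-1.14 to 2.03) and in 12 by the longest coding transcript (-2.32 to 0.85). By counts with no length, Psmb9 was above Psmb6 in 5 and Psmb10 above Psmb7 in 16 of the 23. The mean log2 level of the 3 immunoproteasome subunits minus that of the 3 standard subunits was 0.56 and 0.45 in untreated DC1a, 0.23 and 0.00 in DC1b, 0.20 and 0.44 in DC2 and 0.58 and 0.25 in DC3 cells. In TLI mice it was 0.92, 1.31, 0.12 and -0.02 in DC1a, 0.24, 0.72, 0.02 and -0.89 in DC1b, 0.09, -0.51 and -0.25 in DC2 and 0.45, 1.00, 0.13 and -0.43 in DC3 cells. In untreated mice DC1a overlapped DC3 and lay above both DC1b and both DC2 libraries, and DC1b lay below DC3. In TLI mice pools 1 and 2 were above pools 3 and 4 in every subset. The Psmb9 to Psmb6 pair alone was -2.05, -3.21 and -3.69 in TLI DC2 replicates 1, 3 and 4. It was -1.52 and -0.84 in untreated DC2 cells. TLI DC2 replicates 3 and 4 were the lowest of all libraries, and they are of batch 2. In batch 2 the pair was also -1.69 and -1.51 in DC1a, -2.80 and -2.55 in DC1b and -2.47 and -3.03 in DC3 cells. The untreated libraries are all of batch 1, so for replicates 3 and 4 treatment and batch cannot be told apart. These differences are descriptions without a test, and reads of Psmb5, Psmb6 and Psmb7 may be shared with their annotated pseudogene copies, as those of Psme2 may be with Psme2b.

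Psme1 and Psme2 encode the alpha and beta subunits of PA28, the ring-shaped activator that interferon gamma induces and that docks on the core in place of the 19S cap. Psme1 stood at 947 and 952 CPM in untreated DC1a cells, 396 and 469 in DC1b, 462 and 380.0 in DC2 and 488 and 693 in DC3. Its levels in TLI mice were 1009, 1105, 870.1 and 710.3 CPM in TLI DC1a cells, 504, 864, 329 and 399.9 in DC1b, 492, 266 and 405 in DC2 and 569, 762, 459 and 495 in DC3. DC1a was the highest subset in each of the 6 pools. Psme1 was lower than in DC1a in untreated DC2 (-1.17 ± 0.29 on the log2 scale (SE), adjusted p = 0.044), TLI DC1b (-0.87 ± 0.20, adjusted p = 0.039) and TLI DC2 cells (-1.16 ± 0.22, adjusted p = 0.00609). In untreated DC1b the difference was -1.13 ± 0.29, adjusted p = 0.0818. The untreated call was lost without any 1 of its 4 libraries (adjusted p up to 0.356) and the TLI DC1b call without any 1 library other than TLI DC1b replicate 2 (up to 0.146). The TLI DC2 call was lost without TLI DC2 replicate 1 (0.0672), and without TLI DC2 replicate 3 it was -1.03 (adjusted p = 0.0406). Without the batch term none of the 3 passed (0.354, 0.29 and 0.0582 in the order given), nor did the TLI calls within batch 2 (0.106 and 0.0623).

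Psme2 had the highest level per kilobase of all members, and stood at 2256 and 2145 CPM in untreated DC1a cells, 873 and 1032 in DC1b, 1049 and 745 in DC2 and 1345 and 1069 in DC3. The TLI libraries held 1328, 1285, 1868 and 1492 CPM in TLI DC1a cells, 1257, 1409, 1008 and 1069 in DC1b, 711, 657 and 796 in DC2 and 913, 893, 991 and 773 in DC3. The untreated DC1a libraries were at least 2145 CPM and the other untreated libraries at most 1345. TLI DC1a and TLI DC1b libraries overlapped, while TLI DC2 and TLI DC3 libraries all lay below those of TLI DC1a. Psme2 was lower than in DC1a in untreated DC1b (-1.21 ± 0.23 on the log2 scale (SE), adjusted p = 0.0193), untreated DC2 (-1.29 ± 0.23, adjusted p = 0.00691), TLI DC2 (-1.05 ± 0.18, adjusted p = 0.00277) and TLI DC3 cells (-0.74 ± 0.16, adjusted p = 0.0448). The DC3 call did not pass with the pool as a replicate block (adjusted p = 0.0729), which left Psmb9 as the 1 member called in that comparison, and did not pass without any 1 library other than TLI DC1a replicate 2 (adjusted p up to 0.204). The untreated DC1b call was lost without any 1 of its libraries (up to 0.212), the untreated DC2 call without DC1a replicate 1 or DC2 replicate 2 (up to 0.135) and the TLI DC2 call without TLI DC2 replicate 1 (0.0563). Without TLI DC2 replicate 3 the last was -0.99 (adjusted p = 0.0215). Without the batch term the untreated DC1b and TLI DC3 calls did not pass (0.0929 and 0.172) and the 2 DC2 calls did (0.0379 and 0.0133), and within batch 2 the TLI DC3 call did not pass (0.236).

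Psme3 encodes PA28 gamma, the nuclear relative of PA28, and Psme4 encodes PA200, another nuclear activator. Neither passed in any comparison. The lowest, median and highest levels of Psme3 over the pools were 27.1, 48.2 and 84.5 CPM in the 6 libraries of DC1a cells, 9.10, 21.9 and 34.9 in the 6 of DC1b, 7.22, 15.5 and 45.1 in the 5 of DC2 and 19.9, 46.7 and 71.2 in the 6 of DC3. The lowest, median and highest levels of Psme4 over the pools were 24.2, 70.01 and 96.7 CPM in the 6 libraries of DC1a cells, 38.5, 101 and 144 in the 6 of DC1b, 73.3, 118 and 127 in the 5 of DC2 and 23.8, 61.1 and 108 in the 6 of DC3. Psme4 was the activator that was never highest in DC1a in any pool and was lowest there in 3 of 6. The difference of Psme3 between TLI DC1b and TLI DC1a was -1.52, with a 95% interval from -2.56 to -0.49, and that of Psme4 was 0.85, with a 95% interval from 0.10 to 1.60. Psmf1 encodes PI31, a protein that inhibits the isolated 20S core. It ranged from 0.0941 CPM (3 counts, TLI DC2 replicate 4) to 156 CPM (TLI DC1a replicate 1), and its intervals were wide, such as -2.26, with a 95% interval from -4.25 to -0.26, for TLI DC2 against DC1a. Levels in TLI mice were 42.8 to 156 CPM in batch 1 and 0.0941 to 50.3 CPM in batch 2.

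**Figure D3:**
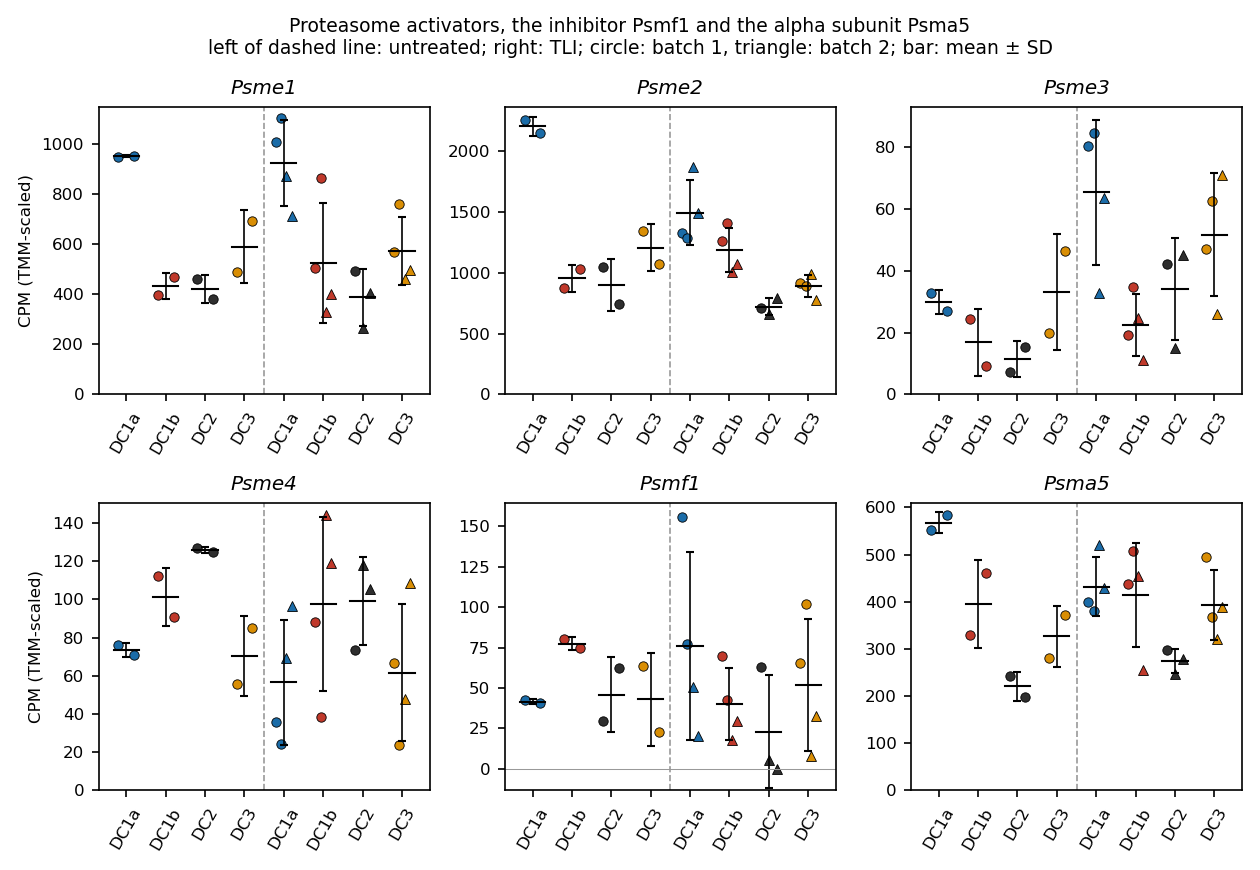
CPM in each library of the activators Psme1 to Psme4, the inhibitor Psmf1 and the alpha subunit Psma5, drawn as in the plot of catalytic subunits, with bars for the mean ± SD. Psme1 and Psme2 were high in DC1a in both treatments (Psme2 2145 to 2256 CPM in untreated and 1285 to 1868 in TLI DC1a), and Psme4 was 24.2 to 96.7 CPM in DC1a and 73.3 to 127 in DC2.

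Among the other core genes 1 was called. Of the alpha ring genes 7 belong to the standard core, and Psma8 is the form of the testis. Psma5 was the single alpha ring gene called, lower in untreated DC2 than in DC1a cells (-1.36 ± 0.30 on the log2 scale (SE), adjusted p = 0.0249), and lost without any 1 of the 4 libraries (adjusted p up to 0.258) and without the batch term (0.0957). It stood at 552 and 583 CPM in untreated DC1a cells, 329.7 and 461 in DC1b, 242 and 199 in DC2 and 281 and 372 in DC3. The lowest, median and highest levels of Psma5 over the pools were 380.3, 475 and 583 CPM in the 6 libraries of DC1a cells, 256, 446 and 508 in the 6 of DC1b, 199, 248 and 299 in the 5 of DC2 and 281, 369.7 and 496 in the 6 of DC3. The 4 beta genes without a catalytic site had fitted levels below DC1a in all 4 cases in each untreated comparison with DC1a, with median differences of -0.40, -0.96 and -0.61 in DC1b, DC2 and DC3, and no calls. The 15 genes made up of the 8 alpha genes, Psma8 among them, and Psmb1 to Psmb7 were summed. They came to 8501 and 8627 CPM in untreated DC1a, 4974 to 6788 in untreated DC1b, 4646 to 5383 in DC2 and 4798 to 6278 in DC3. In TLI mice the sums were 6008 to 8636 CPM in DC1a, 5823 to 7623 in DC1b, 5048 to 5946 in DC2 and 4929 to 6591 in DC3, so that DC1a and DC2 did not overlap and the others did. Per kilobase of exon the mean log2 CPM of the 7 other alpha genes ran from 6.82 (Psma4) to 8.25 (Psma6), and that of the 4 beta genes from 6.53 (Psmb4) to 8.97 (Psmb2). Psma8 was at 3 counts or fewer in 10 of the 23 libraries and reached at most 24.9 CPM, and Psmb11, the thymoproteasome subunit of cortical thymic epithelium, had at most 8 counts in any library and was not tested. These were singled out after their values were seen.

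The 19S cap had no calls between subsets. The 6 ATPases (Psmc genes), which unfold the substrate, and the 11 non-ATPases (Psmd genes), which include the ubiquitin receptors and the deubiquitinase Psmd14, were not called by edgeR in any of the 16 comparisons. Their mean log2 CPM per kilobase ran from 4.71 (Psmc2) to 5.82 (Psmc4) for the ATPases and from 1.73 (Psmd3) to 6.04 (Psmd14) for the non-ATPases. Psmc5, an ATPase, was the 1 member besides Psme4 that was not highest in DC1a in any pool. The smallest adjusted p of the ATPases was that of Psmc3 between TLI and untreated DC1b cells (1.99, adjusted p = 0.189), and that of the non-ATPases was that of Psmd1 between TLI DC3 and TLI DC1b cells (1.21, adjusted p = 0.34). The median difference of the ATPases and of the non-ATPases from DC1a in untreated cells was -0.13 and -0.25 in DC1b, 0.15 and 0.04 in DC2, and -0.17 and -0.01 in DC3. The 17 genes together summed to 1843 and 1996 CPM in untreated DC1a, 1478 to 1622 in DC1b, 1665 to 1997 in DC2 and 1741 to 1754 in DC3 cells, so that untreated DC1a overlapped DC2 and lay above DC1b and DC3. They moved with the batch of TLI mice: the sum was 1429 to 3449 CPM in the 7 libraries of batch 1 and 1002 to 1419 CPM in the 8 of batch 2, against 1478 to 1997 in untreated mice, all of batch 1. The erythroid markers given above were high in the same 7 libraries, and their part in these sums was not tested. The alpha ring did not separate in this way (2743 to 4370 and 2719 to 4806 CPM). The 3 assembly chaperones of the cap (Psmd5, Psmd9, Psmd10) and the 4 of the core (Psmg1 to Psmg4) had no calls, and Psmg1 and Psmg3 were at 0 counts in 1 library each.

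Counted over all 47 members, 2 were called in untreated DC1b against DC1a, both lower, against 0.837% of all genes in either direction and 0.316% lower. In untreated DC2 against DC1a 5 were called, all lower (Psma5, Psmb6, Psmb9, Psme1 and Psme2), against 1.91% and 1.05%. In TLI mice 2 were called in DC1b (Psmb9 and Psme1; background 1.42% and 0.204% lower), 4 in DC2 (Psmb8, Psmb9, Psme1 and Psme2; 3.4% and 1.3%) and 2 in DC3 (Psmb9 and Psme2; 0.75% and 0.367%), all lower than in DC1a. Between the other subsets Psmb9 was the 1 member called in TLI DC2 against DC1b (0.214%, and 0.184% lower) and in TLI DC3 against DC2 (1.37%, and 0.439% higher). For the refits that follow, with libraries left out or 1 batch alone, the share of all genes called is not given. A low count there may therefore come from a fit that calls few genes of any kind. The untreated counts changed when 1 library was left out. That of DC1b was 0 without either DC1a library or without DC1b replicate 2, and 1 without DC1b replicate 1. That of DC2 was 0 without DC1a replicate 1 or DC2 replicate 2, and 1 without DC1a replicate 2 or DC2 replicate 1. The TLI DC2 count was 1 without TLI DC2 replicate 1, leaving Psmb9. The count of TLI DC2 against DC1b was 0 without TLI DC2 replicate 3 or 4. The counts of TLI DC1b and TLI DC3 against DC1a were 1, Psmb9, without any 1 of their libraries other than TLI DC1b replicate 2 and TLI DC1a replicate 2, respectively. With TLI libraries of batch 2 alone the 5 TLI counts were 1, 3, 1, 1 and 1 in the order given, and with those of batch 1 alone all were 0.

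In 5 subset comparisons edgeR called 0 members. In untreated DC3 against DC1a, where it called 0.184% of all genes, 10 of 47 members and 7.47% of all genes had an unadjusted p under 0.05, and DESeq2 called 3 members and 4% of all genes. In untreated DC2 against DC1b (0.398%) the unadjusted numbers were 2 members and 9.21% of genes, and those of DESeq2 0 members and 5.25%. In untreated DC3 against DC1b (0.393%) they were 2 members and 8.43%, and 1 member and 4.58%. In untreated DC3 against DC2 (0.837%) they were 3 members and 11.1%, and 1 member and 8.5%. In TLI DC3 against DC1b (1.11%) they were 4 members and 11.9%, and 0 members and 6.49%. The 2 to 4 members of these last 4 comparisons are 4.26% to 8.51% of the 47, below the share of all genes in each.

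Most members had fitted values below 0 against DC1a: 35 of 47 in DC1b, 30 in DC2 and 36 in DC3 in untreated mice, and 39, 39 and 37 in TLI mice. Of the 19597 genes tested, 8607, 8537 and 8825 were below 0 in untreated mice, and 9543, 9634 and 9912 in TLI mice. In untreated mice the median log2 difference of the 47 members from DC1a was -0.49 in DC1b, -0.48 in DC2 and -0.44 in DC3, while that of all genes tested was 0.07, 0.11 and 0.04. In TLI mice it was -0.28, -0.49 and -0.23, with 0.02, 0.02 and -0.01 for all genes. The 3 comparisons share the DC1a libraries. By group means DC1a was the highest subset for 25 of 47 members in untreated and 33 of 47 in TLI mice, and DC2 was the lowest for 18 and 31. These orders were not counted over all genes. The TLI DC2 means hold no library of pool 2, unlike those of the other TLI subsets, so 18 and 31 do not compare like sets of pools.

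**Figure D4:**
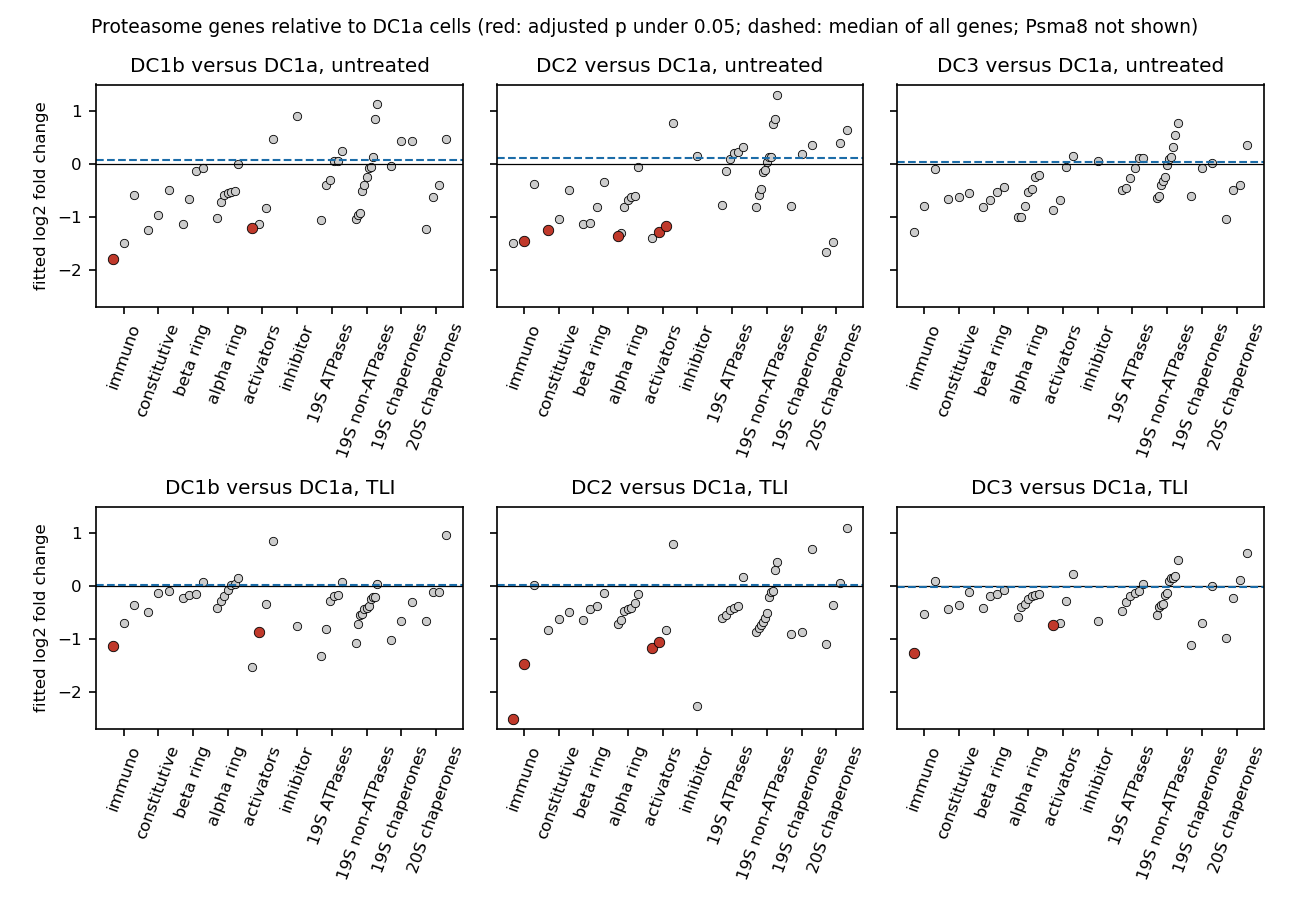
Fitted log2 fold change of each member against DC1a cells of the same treatment (1 point per gene, grouped by role), with adjusted p under 0.05 in red, 0 as a solid line and the median of all genes tested as a dashed line. Psma8 is not drawn, since groups at 0 counts give no measure of size. The called genes are Psmb8, Psmb9, Psmb6, Psma5, Psme1 and Psme2, and the points of the 19S genes lie around 0 in untreated mice.

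TLI against untreated mice was compared within each subset. Batch 2 holds TLI libraries only, so the fit takes the batch from the difference between TLI pools and sets TLI pools against untreated pools as if all were of batch 1. A fitted difference can therefore have the opposite sign of the difference between group means, as for Psmb8 in DC1a cells (means of 1507 ± 487 CPM, SD, n = 4, in TLI and 1683 ± 181, n = 2, in untreated mice; fitted 0.21, with a 95% interval from -0.62 to 1.03). No member was called in any subset by edgeR. The background was 0.0102% of genes in DC1a, 0.413% in DC1b, 0.0612% in DC2 and 0.0255% in DC3. Members with an unadjusted p under 0.05 numbered 4, 5, 4 and 4 (8.51%, 10.6%, 8.51% and 8.51% of the 47), against 9.76%, 12.4%, 9.01% and 10.4% of all genes. DESeq2 called 0, 2 (Psmb9 and Psmc3), 0 and 0 members, against 3.64%, 6.27%, 4.15% and 3.53% of all genes. In DC1b cells the differences were 1.01 ± 0.27, adjusted p = 0.131 for Psmb9 and 1.00 ± 0.40, adjusted p = 0.324 for Psmb8. The sums of neutrophil and of monocyte markers were also higher in those TLI libraries (monocyte or macrophage markers 8277 to 25038 CPM, against 2969 to 5001 in untreated DC1b). Lyz2 made up most of the monocyte sum in TLI DC1b (mean 15158 CPM, against 2226 in untreated DC1b). Ly6c2, of the same list, went the other way (431 against 1670 CPM). In DC2 cells the difference of Psmb9 was -0.69, with a 95% interval from -1.29 to -0.09. Over the 47 members the median difference was 0.26 in DC1a, 0.36 in DC1b, 0.14 in DC2 and 0.37 in DC3, against 0.15, 0.09, 0.02 and -0.05 over all genes. All 11 non-ATPase genes of the cap had fitted values above 0 in DC1a and in DC3, with medians of 0.63 and 0.72 and no calls. The difference of the TLI effect between subsets was tested for the 6 pairs of subsets, and no member passed in any of them; 0 to 3 members a pair had an unadjusted p under 0.05, and the smallest adjusted p was 0.136, for Psmb9 in DC2 against DC1b.

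**Figure D5:**
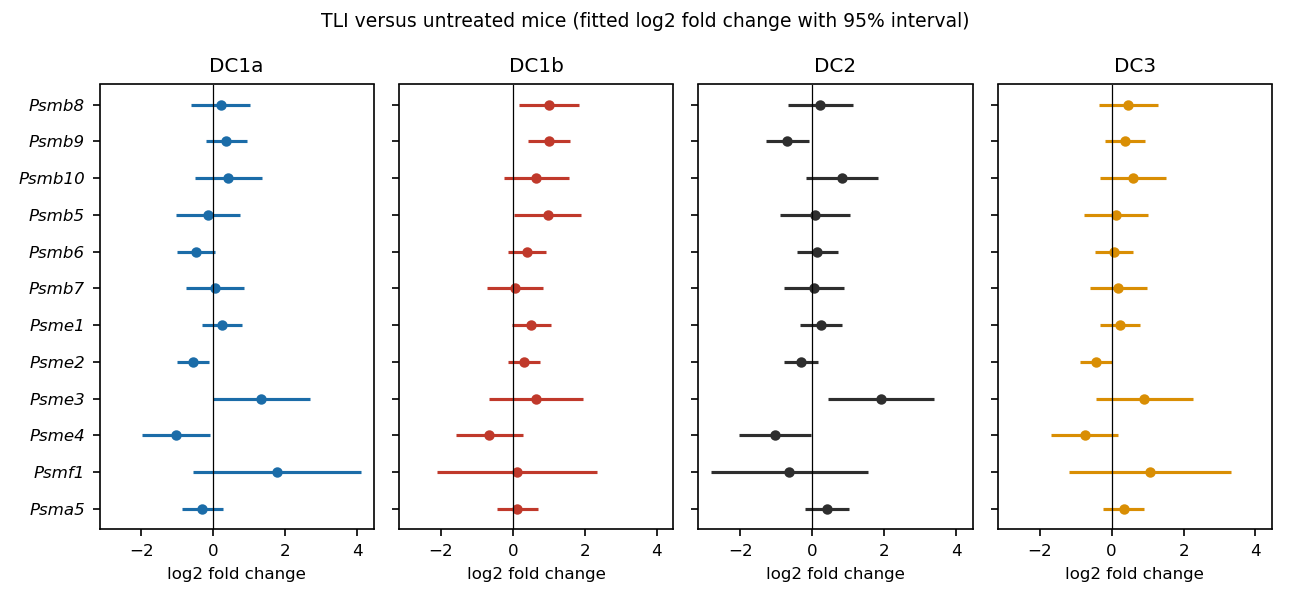
Fitted log2 fold change between TLI and untreated mice with its 95% interval for 12 members in each subset, with the vertical line at 0. No value passed the adjusted threshold. Psmb9 was 1.01 in DC1b and -0.69 in DC2.

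Other genes of the pathway were counted in 3 lists. Their calls are given from the fit of all libraries with the batch term only, so TLI DC1b replicate 4 and TLI DC2 replicate 3 are part of it. Of 25 further proteasome and ubiquitin genes, Pomp, the chaperone that completes assembly of the core, was the 1 called. It was lower than in DC1a in untreated DC1b (-1.29 ± 0.26, adjusted p = 0.0246), untreated DC2 (-1.61 ± 0.26, adjusted p = 0.00301) and TLI DC2 cells (-0.80 ± 0.20, adjusted p = 0.035). Mean Pomp was 1312 CPM in untreated DC1a, 536 in DC1b, 431 in DC2 and 784 in DC3. Of 11 genes of MHC class I loading, Pdia3, the protein disulfide isomerase of the loading complex, was lower in TLI DC2 than in TLI DC1a cells (-1.98 ± 0.48, adjusted p = 0.0292), and B2m, the light chain of class I, was lower in TLI DC3 than in TLI DC1b cells (-1.63 ± 0.36, adjusted p = 0.0362). Tap1, the peptide transporter gene next to Psmb9, was not called in any comparison, with means of 41.8, 29.96, 25.9 and 65.5 CPM in untreated DC1a, DC1b, DC2 and DC3 cells. Of 17 interferon regulators, Irf8, a factor that DC1 cells need, was lower in DC2 than in DC1a cells in untreated (-5.06 ± 0.95, adjusted p = 0.00864) and TLI mice (-4.19 ± 0.73, adjusted p = 0.00282). It was also lower in untreated DC2 than in DC1b cells (-5.67 ± 0.98, adjusted p = 0.011), and higher in DC3 than in DC2 cells in untreated (5.60 ± 0.97, adjusted p = 0.00835) and TLI mice (4.23 ± 0.73, adjusted p = 0.00433). The interferon receptor gene Ifnar2 was higher in untreated DC1b than in DC1a cells (1.94 ± 0.40, adjusted p = 0.0276), and Ifnar1 was lower in TLI than in untreated DC1b cells (-2.70 ± 0.40, adjusted p = 0.00667). Irf1 and Nlrc5, which control class I genes, were not called in any comparison.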

How the data were processed

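RNA of 23 sorted dendritic cell libraries was amplified as cDNA and sequenced. The authors deposited estimated counts per Ensembl gene. By the study's methods and processing notes, reads were trimmed with Trimmomatic, aligned to GRCm38 with HISAT2 and counted with StringTie. All count columns were used, and no per-sample column was left out.

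Counts were rounded and tested with edgeR 4.0.16 (R 4.3.3) by quasi-likelihood, with TMM scaling, filterByExpr (19597 genes kept), the 8 groups and a batch term. 16 comparisons and 6 differences of TLI effects were tested, with Benjamini-Hochberg adjustment over all genes at 0.05. Alternatives used DESeq2 1.42.0 and limma 3.58.1. Levels are TMM-scaled CPM. A length other than union exon length was tried for levels per kilobase. Per-kilobase levels use log2 CPM with a prior count of 2 and exon lengths of GENCODE M21, which paired 47310 of the 47729 identifiers with a symbol and may differ from the annotation used for counting. Library totals were 19256447 to 36997890 counts. Intervals cover the spread between libraries of a group, which come from different pools, and the floor of 3 counts covers counting error only.

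Members and lists were chosen with earlier results of these data known. Genes were named by rule: the catalytic subunits, the activators, Psmf1, every member at 3 counts or fewer in all libraries (none was) and every other called member; the rest are given by range and counts. Libraries sharing a pool come from the same mice by their labels; their residuals correlated at -0.162 to 0.0673 over 33 pairs. No 2 libraries of a group agreed within sampling noise (chi-square per degree of freedom of at least 75.7). On data simulated for TLI DC1b against DC1a, with changed genes drawn at random and no batch difference, 0 of 112 genes changed 2-fold were recovered. Of those changed 4-fold 11 of 88 were, with 0 false calls, so smaller changes can go uncalled. These shares do not describe the proteasome genes, since Psme1 was called in this comparison with a fitted change under 2-fold.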

Additional observations from a re-analysis of the deposited data

Results flagged for a closer look

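A check for a library far from the others of its group was made in 36 groups of 4 libraries, where chance alone marks about 1 in 20, and marked 2, both of Psmb8 and both from TLI pool 2. In TLI DC1b cells replicate 2 held 1831 CPM of Psmb8 and the next highest library 679 CPM, a gap of 0.940 of the whole range of the group. In TLI DC3 cells replicate 2 held 2083 CPM and the next highest library 850.2 CPM, a gap of 0.865 of the range. Both libraries belong to batch 1, whose TLI libraries held 11419 to 85904 CPM of erythroid markers. The DC3 library was the lowest of these 7 in erythroid markers (11419 CPM), and TLI DC3 replicate 1, the highest of them, held 850.2 CPM of Psmb8. What part erythroid transcripts have in the Psmb8 values was not tested. In TLI DC1a cells of pool 2 Psmb8 was 2072 CPM, also the highest of its group.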

How the results depend on the processing

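No fold change of a called member turned its direction under the alternatives run. The counts of members called that moved by more than 1.5 times are given here, with untreated DC1b, DC2 and DC3 or TLI DC1b, DC2 and DC3 set against DC1a of the same treatment unless another subset is named, and the cause was not tested. With RLE size factors TLI DC3 had 1. With no filter on low counts untreated DC2 had 3, TLI DC1b 1 and TLI DC3 1, and with at least 10 counts in every library untreated DC2 had 8. With no term for batch the counts were 0 in untreated DC1b, 1 in untreated DC2, 0 in TLI DC1b, 2 in TLI DC2, 0 in TLI DC3, and 0 in TLI DC2 against DC1b and TLI DC3 against DC2. With the pool as a replicate block TLI DC3 had 1. Counts of that fit that moved by no more than 1.5 times were 3 in untreated DC1b, 7 in untreated DC2 and 3 in TLI DC1b. The other counts of that fit were those of the report. With libraries of the same treatment only, untreated DC1b had 1, TLI DC1b 1, TLI DC3 1 and TLI DC2 against DC1b 0. With DESeq2 untreated DC2 had 8, untreated DC3 3, untreated DC3 against DC1b 1 and untreated DC3 against DC2 1. It gave TLI DC1b 4, TLI DC2 against DC1b 2, and TLI against untreated DC1b 2. Of all genes DESeq2 called 4% in untreated DC3 against DC1a, 4.58% against DC1b and 8.5% against DC2, and 6.27% in TLI against untreated DC1b. In the same order edgeR called 0.184%, 0.393%, 0.837% and 0.413%. For the other counts here the share of all genes under the same setting is not given. A higher count is therefore not a stronger result, nor a lower count a weaker result. In fits chosen after seeing the data, TLI libraries of batch 2 alone gave 1 in TLI DC1b and 1 in TLI DC3, and those of batch 1 alone gave 0 in each of the 5 TLI comparisons with calls. With each library left out in turn the counts ran from 0 to 1 in untreated DC1b, 0 to 1 in untreated DC2, 1 to 2 in TLI DC1b, 1 to 4 in TLI DC2, 1 to 2 in TLI DC3 and 0 to 1 in TLI DC2 against DC1b. Where 1 library of a group was left, its spread was taken to be that of the other groups. Of all alternative counts 160 stayed within 1.5 times, 48 fell and 8 rose. Of the fold changes of called members 155 kept their side of the threshold and 86 no longer passed. The mean log2 level of the immunoproteasome minus the standard subunits moved beyond 1 SD when computed from summed levels in untreated DC1a (0.29) and untreated DC1b (-0.11), and not in 45 other cases.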
